A study of Mus musculus with 7 samples.

Results

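The 10 genes described here encode the main cytosolic heat shock chaperones of the mouse and the factor that drives their transcription: the HSP70 genes Hspa1a, Hspa1b and Hspa8, the HSP110 gene Hsph1, the small heat shock protein gene Hspb1, the HSP90 genes Hsp90aa1 and Hsp90ab1, the J-domain protein genes Dnaja1 and Dnajb1, and the heat shock factor gene Hsf1. They were taken from a list of names, and each symbol matched 1 identifier among the 55414 of the raw count table. RNA was sequenced from Paneth cells, the secretory cells at the base of small intestinal crypts, which were sorted from C57BL/6J mice 15 h after an injection of either PBS, the control, or TNF, an inflammatory cytokine. There were 3 PBS and 4 TNF libraries, each from a different mouse, and the comparison asks how TNF changed the Paneth cell transcriptome. All groups shared the strain, the sort and the time point, and no source used here states the dose, sex, age or sort markers.

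Cytosolic chaperones bind unfolded or partly folded proteins and help them reach or regain their shape. HSP70 proteins do this in cycles of ATP hydrolysis that J-domain proteins start and that exchange factors such as HSP110 and BAG proteins reset, while HSP90 proteins act later on a set of clients that includes kinases and steroid receptors. In most cells Hspa8 and Hsp90ab1 are expressed constitutively. Others, among them Hspa1a, Hspa1b, Hspb1 and Dnajb1, are strongly induced when HSF1 binds heat shock elements, inverted repeats of the unit GAA, in their promoters. Paneth cells make and export large amounts of antimicrobial protein through the endoplasmic reticulum (ER), which has its own members of these families.

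Promoter sequence was found in the RefSeq table (GRCm38.p6) for 6 of the 10 genes. The 150 bases before the most upstream listed start site of each are shown. They were searched for exact letters of a pair of heat shock element units, which were found in all but Dnajb1. Each runs 5′ to 3′ on the strand of the gene, and the capitals mark a pair of units, either tail to tail (TTCNNGAA) or head to head (GAANNTTC), which read the same on both strands.
Hspa1a, chr17:34972157-34972306, minus strand: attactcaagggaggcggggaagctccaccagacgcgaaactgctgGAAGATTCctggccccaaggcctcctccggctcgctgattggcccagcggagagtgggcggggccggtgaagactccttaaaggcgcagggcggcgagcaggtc
Hspa1b, chr17:34959239-34959388, minus strand: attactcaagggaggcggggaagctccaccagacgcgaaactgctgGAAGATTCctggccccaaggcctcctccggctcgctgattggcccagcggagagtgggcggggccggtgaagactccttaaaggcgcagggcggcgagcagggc
Hspb1, chr5:135887769-135887918, plus strand: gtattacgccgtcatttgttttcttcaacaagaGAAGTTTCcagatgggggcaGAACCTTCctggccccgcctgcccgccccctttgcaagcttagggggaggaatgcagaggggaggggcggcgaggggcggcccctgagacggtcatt
Hsph1, chr5:149636337-149636486, minus strand: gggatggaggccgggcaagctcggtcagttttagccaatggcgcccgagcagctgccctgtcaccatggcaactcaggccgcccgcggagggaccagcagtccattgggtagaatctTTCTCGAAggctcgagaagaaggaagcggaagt
Dnaja1, chr4:40722318-40722467, plus strand: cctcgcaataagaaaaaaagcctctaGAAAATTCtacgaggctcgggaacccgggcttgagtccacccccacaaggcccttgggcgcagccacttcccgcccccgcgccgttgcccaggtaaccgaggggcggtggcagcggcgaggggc
Dnajb1, chr8:83608025-83608174, plus strand: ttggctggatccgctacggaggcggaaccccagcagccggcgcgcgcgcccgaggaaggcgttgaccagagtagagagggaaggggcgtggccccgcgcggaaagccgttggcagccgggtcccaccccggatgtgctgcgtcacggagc
Before the start site, Hspa1a and Hspa1b differed at 3 of 250 bases and at 1 of the 150 shown, and both held the pair GAAGATTC, which began 104 bases before the start. Hspb1 held 2 pairs, beginning 117 and 97 bases before the start, Dnaja1 held 1 at 124 bases and Hsph1 held 1 at 33 bases. The table lists 3 start sites for Dnaja1, and no pair was found in the 250 bases before the other two. The pair of Hsph1 was also in the window of its other listed start site. No pair was found in the 250 bases before either of the 2 listed start sites of Dnajb1. This says only that these exact letters are not in those windows. Over 32817 listed promoters, 12.8% held either pair in 250 bases. Either pair extended by a further unit in the same alternation was in 0.466% of them and in none of the 6 genes. The CCAAT box, searched on both strands, was in 33.8% of promoters, and it lay 67 bases before the start of Hspa1a and Hspa1b and at 116 and 47 bases in Hsph1. These matches describe letters and not occupied sites.

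**Figure D1:**
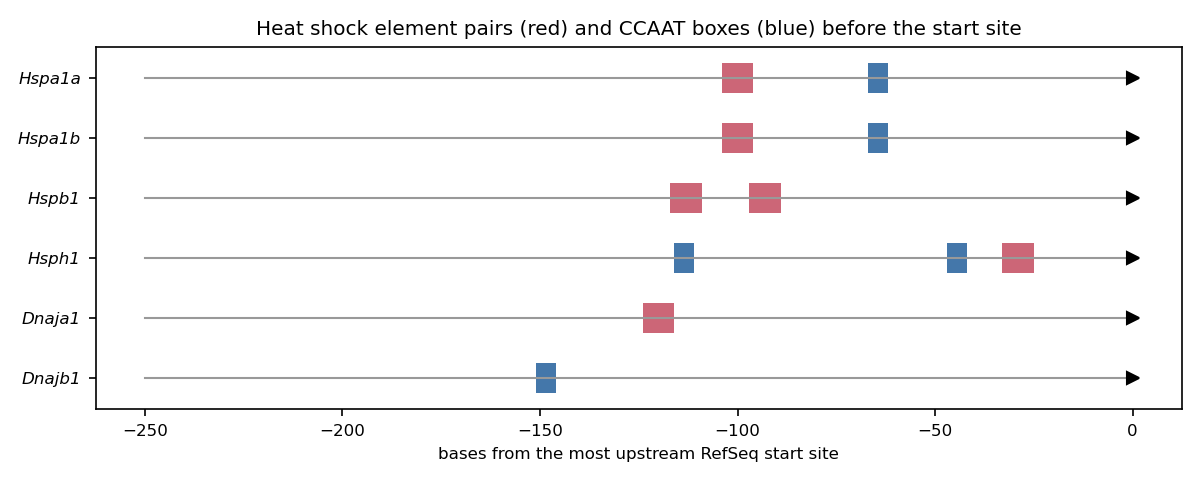
Position of heat shock element pairs (red) and CCAAT boxes on either strand (blue) in the 250 bases before the most upstream RefSeq start site of 6 genes. The x axis gives bases from that start site (arrowhead). Hspa1a and Hspa1b have the same layout, and Dnajb1 has a CCAAT box but no pair.

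Total counts were 15511455 to 19193721 per library, and 14329 genes had enough counts to be tested with the quasi-likelihood test of edgeR, of which 8543 (59.6%) changed at an adjusted p under 0.05, 4229 of them (29.5%) higher and 4314 (30.1%) lower after TNF. Nfkbia, an inhibitor of NF-kB that NF-kB itself induces, was higher after TNF by 3.78 ± 0.15 (SE) on the log2 scale (edgeR adjusted p = 2.48e-10). Paneth markers summed to 165000 to 265000 CPM (counts scaled to a library of 1000000, with library sizes adjusted by TMM, the trimmed mean of M-values) in PBS and 160000 to 286000 in TNF libraries, with 2 of 8 higher and 2 lower. Markers of other cell types also moved with the treatment: the 7 tuft cell markers were all lower (1400 to 2310 CPM summed in PBS, 264 to 675 in TNF), as were 5 of 6 stem cell, 5 of 7 tested enterocyte, 4 of 7 goblet and 4 of 8 enteroendocrine markers, with 1 enterocyte marker higher. The leukocyte list summed to 86.5 to 118 CPM in PBS and 291 to 445 CPM in TNF, most of it Cd74 (mean 73.6 against 340 CPM), with 2 of 5 tested genes higher and 1 lower and Cd3e at 0. The other higher gene was S100a9, a neutrophil and monocyte marker, with 0 counts in every PBS library and 3.21 to 7.85 CPM in the TNF libraries, and S100a8, which was not tested, had 0 counts in PBS and 0.214 to 0.766 CPM in TNF libraries. Of the stromal and endothelial list only Vwf was tested, and it was higher (2.29 to 2.72 against 7.98 to 9.96 CPM summed), and of the erythroid list, whose 4 globin genes were at 0, none was tested. Mitochondrially encoded mRNAs summed to 3240 to 5480 CPM in PBS and 1880 to 3760 in TNF, with 3 of 7 tested lower. The other 6 of the 13 were at 0 in every library (mt-Nd3, mt-Nd4l, mt-Co2, mt-Co3, mt-Atp6 and mt-Atp8), and the reason was not tested. The part of these other cells and of RNA quality in the results that follow was not tested, and in bulk RNA fewer cells of a type and less RNA per cell cannot be told apart.

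Of the 10 chaperone genes, 8 had enough counts to be tested. After TNF 4 were higher (Hspa8, Hsp90aa1, Dnaja1 and Dnajb1), Hsph1 was lower, and Hspa1b, Hsp90ab1 and Hsf1 did not pass the threshold. The number called, 5 of 8, is near the 59.6% of all tested genes, and the 4 higher and 1 lower stand beside 29.5% and 30.1%. The PBS and TNF libraries did not overlap for 6 of the 8, the 5 called genes and Hsp90ab1, against 60.7% of all tested genes (29.9% higher and 30.9% lower). This separation depends on TMM: with CPM by total counts, a comparison added after seeing the data, it held for Hspa8, Hsph1 and Dnajb1, 3 of the 8, against 55.6% of all tested genes (23.3% higher and 32.3% lower). The median log2 fold change of the 8 was 0.32, beside 0.0017 over all tested genes. The stress-inducible Hspa1a and Hspb1 were at or near 0 in every library and were not tested. The number of higher genes fell from 4 to 2 when PBS replicate 1, PBS replicate 3 or TNF replicate 3 was left out, Hsp90aa1 and Dnaja1 being the calls lost.

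**Figure D2:**
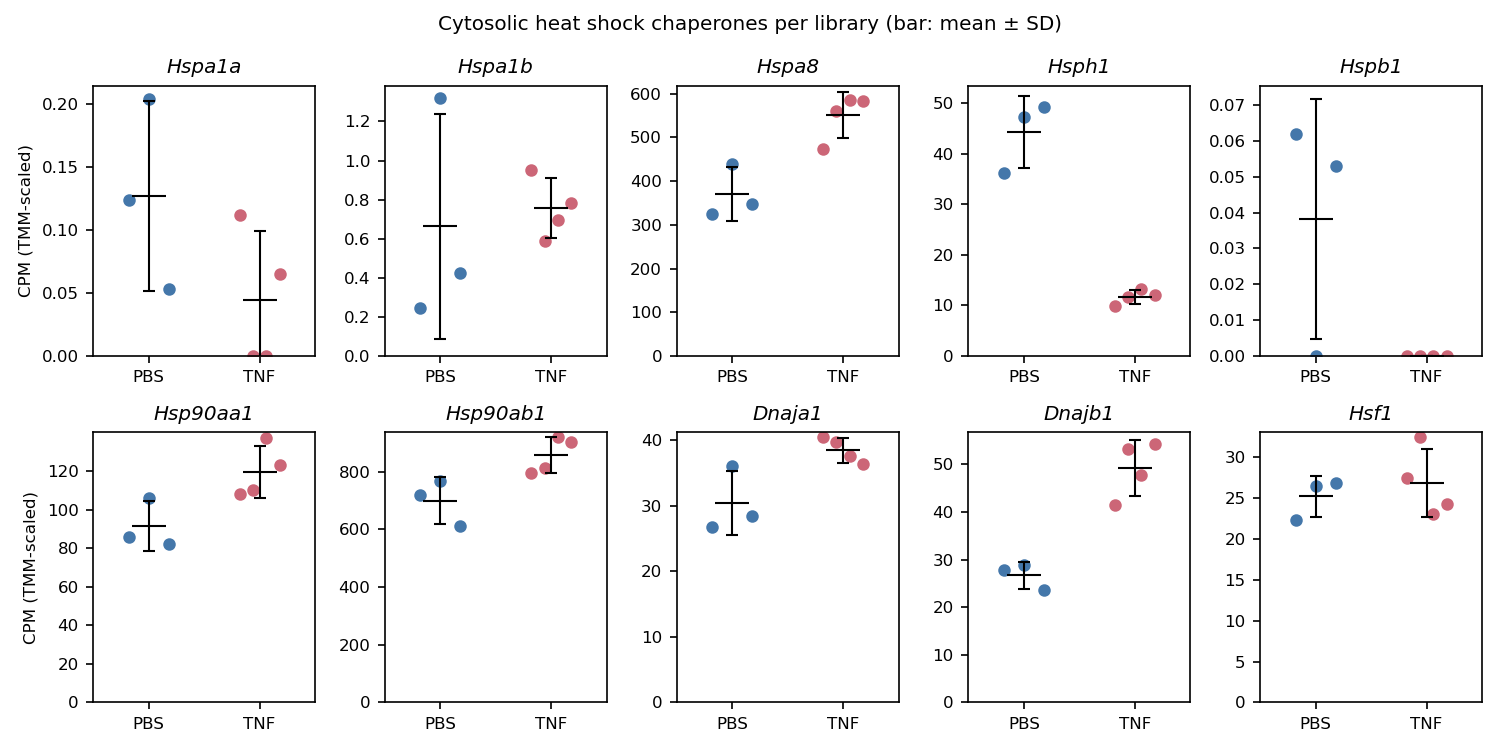
TMM-scaled CPM for the 10 genes, 1 panel each with its own linear axis from 0. Points are libraries (3 PBS in blue, 4 TNF in red), horizontal bars are means and whiskers are SD. Hsph1 falls from 36.2 to 49.3 CPM in PBS to 9.91 to 13.2 CPM in TNF, Dnajb1 and Hspa8 rise without overlap, and Hspa1a, Hspa1b and Hspb1 stay at or below 1.32 CPM.

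Levels differed widely among the genes. Per kilobase of the canonical transcript, the mean level in PBS libraries was highest for Hsp90ab1 at 259 ± 30.1 CPM per kb (SD, n = 3), followed by Hspa8 at 155 ± 25.6 and Hsp90aa1 at 25.9 ± 3.67. Below these came Dnajb1 at 7.55 ± 0.785, Hsph1 at 7.16 ± 1.14, Dnaja1 at 5.46 ± 0.888 and Hsf1 at 4.90 ± 0.495 CPM per kb, and within this group the intervals of mean ± SD of neighbouring genes overlapped. Hspa1b was at 0.237 ± 0.206, Hspa1a at 0.0427 ± 0.0254 and Hspb1 at 0.0418 ± 0.0365 CPM per kb, again with overlapping intervals between neighbours. Ranked by level per kilobase over all libraries, Hsp90ab1 was number 83 and Hspa8 number 149 of 14292 genes, whereas Hspa1b was number 13660. In TNF libraries (n = 4) the order changed in 1 respect: Hsph1, at 1.89 ± 0.223 CPM per kb, lay below Dnajb1 (13.9 ± 1.68), Dnaja1 (6.90 ± 0.340) and Hsf1 (5.22 ± 0.818), and only for Hspa1a and Hspb1 did these intervals overlap. Hspa8 and Hsp90ab1 together held 83.0% ± 1.0 of the counts of the 10 genes in PBS and 85.1% ± 0.396 in TNF libraries, and all 10 genes took 0.138% ± 0.0204 and 0.158% ± 0.0116 of all counts.

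Much of this family has near-identical copies or processed pseudogenes in the genome, and no source used here states how reads that match several places were counted. Of the 75-base windows of the canonical transcript that lie unbroken in GRCm39, 73.9% of those of Hspa8 were found at more than 1 place, as were 55.8% in Hspa1b, 54.2% in Hspa1a, 54.2% in Hsp90aa1, 49.4% in Hspb1 and 19.7% in Dnaja1. The share was 1.35% for Hsp90ab1 and 0 for Hsph1, Dnajb1 and Hsf1. In windows of 150 bases it was 57.5% for Hspa8 and 31.1% for Hsp90aa1. Only places in the genome were counted. A window across an exon junction found there a single time was taken as not repeated, though it also matches the spliced transcript. The shares of spliced genes may therefore be too low. The levels of the genes with a high share are therefore uncertain. This covers the low levels of Hspa1a, Hspa1b and Hspb1 and the place of Hspa8 below Hsp90ab1. The levels of Hsph1, Dnajb1 and Hsf1 do not rest on repeated windows of these lengths.

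**Figure D3:**
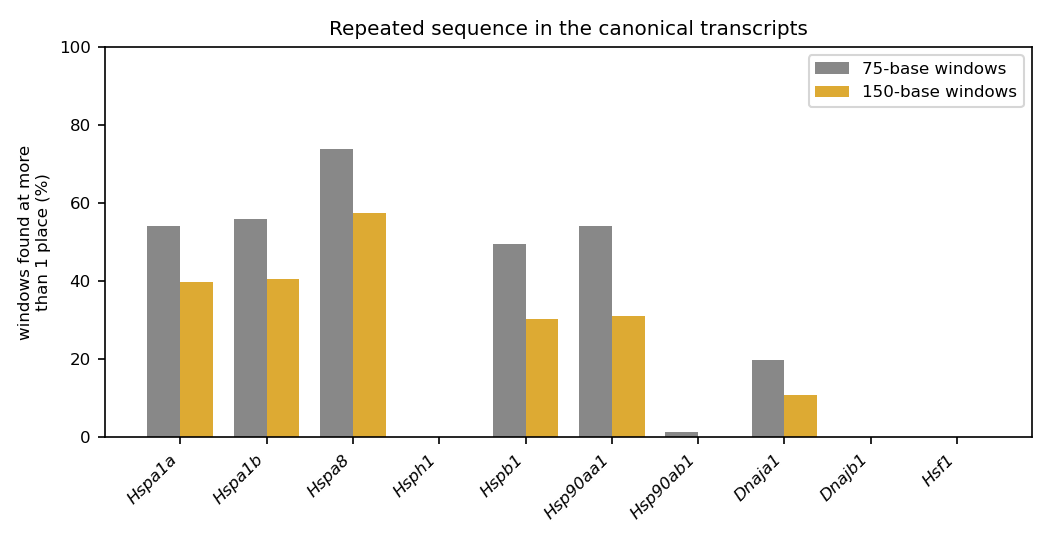
Percent of 75-base (grey) and 150-base (yellow) windows of each canonical transcript that occur at more than 1 place in the mouse genome (GRCm39). Hspa8 has the highest share at 73.9% of 75-base windows, and Hsph1, Dnajb1 and Hsf1 have none.

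Among the HSP70 genes, Hspa8 (GRCm39 chr9:40711630-40731039, plus strand), which encodes the constitutive cytosolic HSP70, was at 324, 440 and 348 CPM in PBS replicates 1 to 3 and at 474, 561, 585 and 583 CPM in TNF replicates 1 to 4. All TNF libraries lay above all PBS libraries, with PBS replicate 2 the nearest to them. The log2 fold change was 0.57 ± 0.13 (SE, edgeR adjusted p = 0.00201), a 1.49-fold rise.

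Hspa1a (chr17:35188166-35191132, minus strand) and Hspa1b (chr17:35175412-35178214, minus strand) encode nearly the same inducible HSP70 and are neighbours on chromosome 17. Hspa1b was at 0.247, 1.32 and 0.424 CPM in PBS and at 0.951, 0.589, 0.696 and 0.785 CPM in TNF libraries. The PBS libraries spanned the whole TNF range, and the difference was not called (log2 fold change 0.17 ± 0.63 SE, edgeR adjusted p = 0.837). The value rested on single libraries: it was 1.15 without PBS replicate 2, -0.21 without PBS replicate 1 and -0.09 without PBS replicate 3, and was called in none of these fits. Hspa1a had 7 counts over the 3 PBS and 3 counts over the 4 TNF libraries, a TNF to PBS ratio of 0.305 relative to total counts, with an exact 95% interval of 0.0508 to 1.33 that covers counting error only. Because 52.7% of the 75-base windows of Hspa1a were also found in Hspa1b, the split of reads between them is uncertain; with the counts of both summed, the log2 fold change was 0.00 ± 0.69 (SE, edgeR adjusted p = 0.999). Neither gene was detectably induced at this depth, at which 3 counts in a library equal 0.17 CPM.

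Hsph1 (chr5:149537636-149560156, minus strand) encodes the cytosolic HSP110, a relative of HSP70 that acts as its nucleotide exchange factor. It was at 36.2, 47.3 and 49.3 CPM in PBS and at 9.91, 11.6, 13.2 and 12.0 CPM in TNF libraries. The highest TNF library was thus far below the lowest PBS library, and the log2 fold change was -1.92 ± 0.14 (SE, edgeR adjusted p = 9.49e-08), 3.78-fold lower after TNF. Hsph1 was the only gene of the 8 tested that fell, and its transcript has no repeated 75-base window.

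The small heat shock protein gene Hspb1 (chr5:135916760-135918417, plus strand), which encodes HSP25, had 1 count in each of PBS replicates 1 and 3 and none in the remaining 5 libraries. A count of 0 in a library allows up to 0.17 CPM, so no difference could be detected.

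Of the HSP90 genes, Hsp90aa1 passed the test and Hsp90ab1 did not. Hsp90aa1 (chr12:110656842-110669166, minus strand), the inducible form, was at 85.8, 106 and 82.1 CPM in PBS and at 108, 110, 137 and 123 CPM in TNF libraries. The groups did not overlap, though PBS replicate 2 came within a few CPM of TNF replicates 1 and 2 and, by total counts, lay above TNF replicates 2 and 4 (113 against 102 and 104 CPM). The log2 fold change was 0.39 ± 0.12 (SE, edgeR adjusted p = 0.0136). That call was lost without PBS replicate 1 (adjusted p = 0.0522 in edgeR), PBS replicate 3 (0.0608) or TNF replicate 3 (0.0534), and with scaling by total counts, which gave a log2 fold change of 0.22 (adjusted p = 0.219).

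Hsp90ab1 (chr17:45878552-45891949, minus strand), the constitutive form, was at 719, 769 and 610 CPM in PBS and at 795, 814, 919 and 903 CPM in TNF libraries. These did not overlap either, but the log2 fold change of 0.30 ± 0.13 (SE) had an edgeR adjusted p of 0.0574, against 0.0245 with DESeq2 and 0.0452 in edgeR without TNF replicate 1. By total counts the groups overlapped, with PBS replicate 2 at 822 CPM above TNF replicates 2 and 4 at 753 and 760 CPM, and the log2 fold change was 0.14 (edgeR adjusted p = 0.275). The log2 ratio of Hsp90aa1 to Hsp90ab1 counts was -3.07, -2.86 and -2.89 in PBS and -2.88, -2.89, -2.74 and -2.87 in TNF libraries. The groups overlapped, and the difference of 0.09 gave p = 0.4 (exact permutation test, two-sided, 35 splits, smallest possible p 0.0286; adjusted p = 0.571 over 3 ratios).

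Of the J-domain protein genes, Dnajb1 (chr8:84334811-84339820, plus strand) encodes HSP40, which delivers substrates to HSP70 and is itself an HSF1 target. It was at 27.7, 28.8 and 23.5 CPM in PBS and at 41.4, 53.2, 47.8 and 54.3 CPM in TNF libraries. The groups were well apart, and the log2 fold change was the highest of the 8 at 0.88 ± 0.13 (SE; adjusted p = 4.54e-05 by edgeR), a 1.84-fold rise.

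Dnaja1 (chr4:40722056-40737149, plus strand) encodes a J-domain co-chaperone of Hspa8. It was at 26.8, 36.0 and 28.4 CPM in PBS and at 40.4, 39.7, 37.5 and 36.3 CPM in TNF libraries, so that PBS replicate 2 lay just under the lowest TNF library. The log2 fold change was 0.34 ± 0.12 (SE, edgeR adjusted p = 0.0309), and the call was lost when any of 5 libraries was left out: PBS replicates 1 and 3 (adjusted p in edgeR 0.132 and 0.101) and TNF replicates 1, 2 and 3 (0.0523, 0.0643 and 0.0568). It was also lost with scaling by total counts, at a log2 fold change of 0.18 (edgeR adjusted p = 0.435), where PBS replicate 2 (38.5 CPM) lay above TNF replicates 2, 3 and 4 (36.7, 36.5 and 30.6 CPM). Exons of Dnaja1 overlap those of Smu1, on the opposite strand, over 7150 bases, and Smu1 rose by 0.78 on the log2 scale (edgeR adjusted p = 2.65e-05). Whether strand was used in counting is not given, so reads of the pair may not be told apart.

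The log2 ratio of Dnajb1 to Dnaja1 was 0.05, -0.32 and -0.27 in PBS and 0.03, 0.42, 0.35 and 0.58 in TNF libraries. Apart from TNF replicate 1, the TNF libraries lay above the PBS libraries, but the difference of 0.53 was not significant (exact permutation test, two-sided, p = 0.114, adjusted p = 0.343). The log2 ratio of Hspa1a plus Hspa1b to Hspa8 was -9.15 ± 0.86 in PBS (SD, n = 3) and -9.46 ± 0.48 in TNF libraries (SD, n = 4), a difference of -0.31 (exact permutation test, p = 0.571). Its sign turned when PBS replicate 2 was left out (0.18), which held the highest Hspa1b level.

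**Figure D4:**
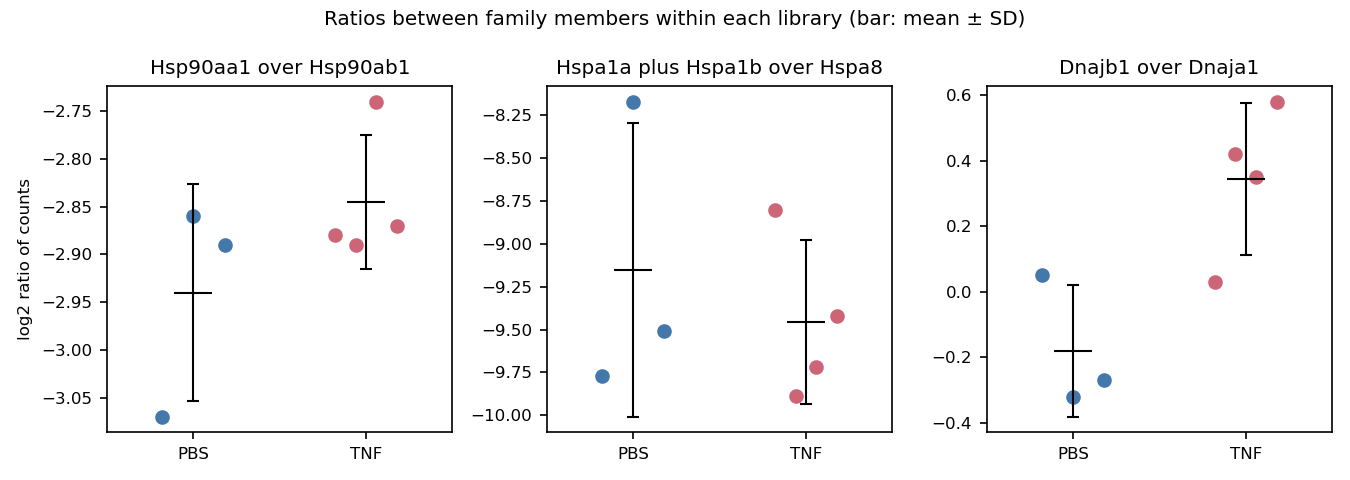
Log2 ratio of counts between family members within each library, which does not depend on library scaling. Points are libraries (3 PBS in blue, 4 TNF in red), bars are means with SD, and the y axes do not start at 0. The groups overlap in all 3 panels, with TNF replicate 1 of Dnajb1 over Dnaja1 at 0.03 and the other TNF libraries at 0.35 to 0.58.

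Hsf1 (chr15:76361558-76388138, plus strand), the transcription factor that induces these chaperones on proteotoxic stress, was at 22.3, 26.5 and 26.8 CPM in PBS and at 27.4, 32.5, 23.1 and 24.3 CPM in TNF libraries. The groups overlapped, and the log2 fold change was 0.09 ± 0.14 (SE, edgeR adjusted p = 0.606), with a negative sign under scaling by total counts (-0.08) and without TNF replicate 2 (-0.01). HSF1 is controlled mainly as a protein, which RNA does not show. Its exons overlap Dgat1 over 2486 bases and Bop1 over 522 bases on the opposite strand, and these genes moved in opposite directions (log2 fold changes -1.42 and 0.40; edgeR adjusted p = 5.35e-06 and 0.0143).

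In TMM-scaled CPM the libraries kept some order across the chaperones. Among PBS libraries, replicate 2 was the highest for 6 of the 8 tested genes (it was so for 30.9% of all tested genes) and replicate 1 the lowest for 5 (31.6%). Among TNF libraries, replicate 3 was the highest for 4 (20.3%) and replicate 1 the lowest for 5 (31.4%). By total counts, compared after seeing the data, TNF replicate 1 was the lowest only for Dnajb1 (44.8 CPM). TNF replicate 4 was then the lowest for Hspa8, Hsph1, Dnaja1 and Hsf1, and PBS replicate 1 for every tested gene. The shares over all tested genes were not computed for this scaling. Summed over the 10 genes in TMM-scaled CPM, PBS libraries held 1170 to 1460 CPM and TNF libraries 1500 to 1760 CPM. As a share of all counts the groups overlapped, at 0.115%, 0.156% and 0.142% in PBS and 0.162%, 0.150%, 0.172% and 0.146% in TNF libraries.

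The remaining genes of the pathway were read from lists by family, each given beside 29.5% higher and 30.1% lower over all tested genes. Of 11 tested HSP70 and HSP110 relatives and exchange factors, 4 were higher and 3 lower, with a median log2 fold change of 0.05. The higher genes were Bag3, an HSP70 co-chaperone of selective autophagy, and the exchange factors Bag1, Bag2 and Hspbp1, while Bag4 and Bag5 were not called (-0.27 and 0.31; edgeR adjusted p = 0.0862 and 0.0631). Bag3 went from 39.1 to 42.5 CPM in PBS to 83.6 to 111 CPM in TNF libraries (log2 fold change 1.31 ± 0.12 SE, edgeR adjusted p = 4.78e-07). Hspa4l, an HSP110 protein like Hsph1, was lower (48.5 ± 4.62 against 36.6 ± 5.67 CPM, SD; log2 fold change -0.40, edgeR adjusted p = 0.0165), as were Hspa4, the third HSP110 gene (-0.29, adjusted p = 0.0157), and Hspa13 (-0.27, adjusted p = 0.0371). These falls were small beside that of Hsph1, and the number lower was 0 without PBS replicate 2 and 1 without TNF replicate 2.

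Of 11 other cytosolic J-domain protein genes, 6 were higher and 1 lower, with a median of 0.47. Dnajb5 rose most, from 2.49 to 3.09 CPM in PBS to 6.09 to 7.84 CPM in TNF (log2 fold change 1.35 ± 0.24 SE, edgeR adjusted p = 0.000271). Dnajc13, which acts on endosomes, fell by 0.70 on the log2 scale (edgeR adjusted p = 6.99e-05). Of the small heat shock protein list, 8 of 9 symbols were in the table, 4 were at 0 (Hspb2, Hspb3, Hspb9 and Cryaa) and 2 were tested. Hspb8, the partner of Bag3, was the higher one, at 5.25 to 9.70 CPM in PBS and 17.5 to 27.2 CPM in TNF libraries (log2 fold change 1.57 ± 0.22 SE, edgeR adjusted p = 4.24e-05).

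Of 15 HSP90 co-chaperone genes, 3 were higher and 3 lower, with a median of -0.03. Fkbp5, an immunophilin and a known glucocorticoid receptor target, rose from 25.1 to 27.3 CPM in PBS to 73.6 to 106 CPM in TNF libraries (log2 fold change 1.77 ± 0.13 SE, edgeR adjusted p = 6.37e-08), and Fkbp4, another immunophilin, fell from 203 to 220 CPM to 88.5 to 113 CPM (-1.10, adjusted p = 9.21e-07). Chordc1, a heat-inducible HSP90 partner, also fell, from 33.2 to 39.1 CPM to 12.5 to 16.6 CPM (-1.27 ± 0.13 SE, edgeR adjusted p = 2.04e-06). Stip1, which links HSP70 to HSP90, had a log2 fold change of -0.29 and was not called (edgeR adjusted p = 0.0626). The immunophilin Ppid was not called either (0.15, edgeR adjusted p = 0.348). Fkbp4 and Ppid were added to the named genes after their values were seen.

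Of 3 tested genes for other heat shock factors and their binding proteins, only Hsbp1, whose product binds HSF1, was higher (log2 fold change 0.47, edgeR adjusted p = 0.0175), and this call was lost without PBS replicate 3. Hsf2 had a log2 fold change of -0.27 (edgeR adjusted p = 0.205). Of 14 subunits of TRiC, the cytosolic chaperonin that folds actin and tubulin, and of its partner prefoldin, 9 were higher and 0 lower in edgeR (0 lower also at an unadjusted p under 0.05 and with DESeq2), with a median of 0.53. The number higher was 6 with scaling by total counts. It was 5 with a replicate block over replicates 1 to 3, a fit without TNF replicate 4, and 8 without that library alone. The number lower was 1 with scaling by total counts, without PBS replicate 3 or without TNF replicate 4. Cct3 rose most, from 101 to 107 CPM in PBS to 161 to 217 CPM in TNF libraries (log2 fold change 0.82 ± 0.12 SE, edgeR adjusted p = 3.45e-05). Cct4 was the only listed TRiC subunit that was not called (0.02, edgeR adjusted p = 0.901).

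The organelle chaperones showed no common direction. Of 11 mitochondrial chaperones and proteases, 3 were higher and 4 lower, with a median of -0.01. Grpel1, an exchange factor of mitochondrial HSP70, rose (log2 fold change 1.42 ± 0.14 SE, edgeR adjusted p = 8.37e-07) and Dnaja3, a mitochondrial J-domain protein, fell (-0.86 ± 0.10 SE, edgeR adjusted p = 7.78e-06). The HSF1 targets Hspd1 and Hspe1, which form the mitochondrial chaperonin, had log2 fold changes of 0.10 and -0.01 (edgeR adjusted p = 0.479 and 0.967). Of 8 ER members, 1 was higher and 3 lower, with a median of -0.10. Hspa5, the ER HSP70, was higher (log2 fold change 0.52 ± 0.16 SE, edgeR adjusted p = 0.0121), with PBS replicate 1 at 1050 CPM above TNF replicate 1 at 1010 CPM, and the call was lost without PBS replicate 2. Hsp90b1, the ER HSP90, was lower (-0.55 ± 0.18 SE, adjusted p = 0.0189), with overlapping groups, and Dnajc3 was lower (-0.90 ± 0.21 SE, adjusted p = 0.00354).

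**Figure D5:**
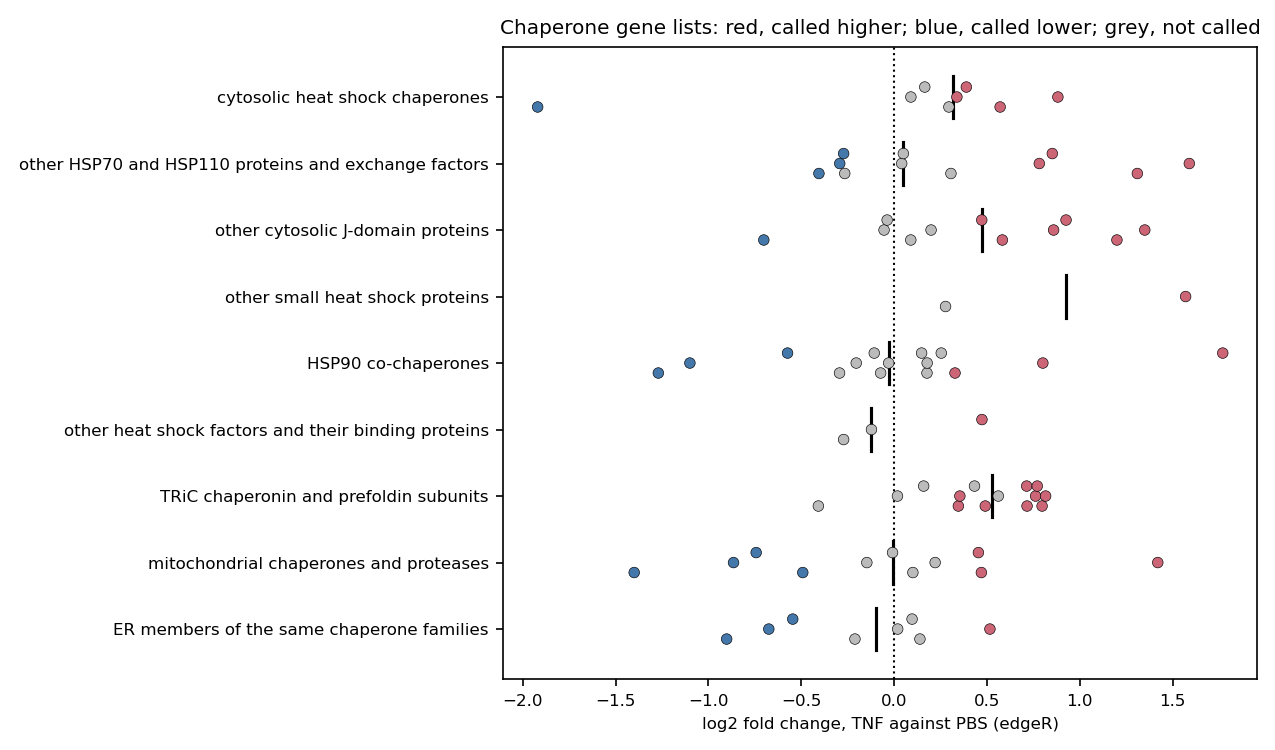
Log2 fold change after TNF (x axis, edgeR) for the tested genes of the cytosolic heat shock chaperones and 8 related lists. Each point is a gene (red, called higher; blue, called lower; grey, not called), vertical bars are list medians and the dotted line is the median of all tested genes, 0.0017. Hsph1 lies alone at -1.92, and the TRiC and prefoldin list has 9 of 14 genes called higher and none lower.

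Heat shock genes and early response genes are both known to rise while tissue is dissociated, so a list of 12 such early genes was read beside the chaperones. Of these, 8 were higher and 2 lower, with a median of 0.85. Junb rose from 47.0 to 59.5 CPM in PBS to 286 to 383 CPM in TNF libraries (log2 fold change 2.65 ± 0.14 SE, edgeR adjusted p = 3.79e-09), and Egr1, Atf3 and Jun were higher by 2.23, 1.53 and 0.93. Fosb went the other way, from 25.4 to 64.6 CPM to 2.62 to 6.04 CPM (-3.43 ± 0.35 SE, edgeR adjusted p = 2.37e-05), and Fos was not called (0.40, adjusted p = 0.220). The part of dissociation in the chaperone values was not tested.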

How the data were processed

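Raw counts per gene, not normalized, were deposited by the authors for 7 libraries. The submitters' processing notes name FastQC, Trimmomatic 0.39, STAR 2.7.10a and DESeq2 and the builds mm10 and mm39; no source used here states the counter, annotation or strandedness. The genes and lists were chosen with earlier results of these data known. Symbols and GRCm39 coordinates came from GENCODE M39, which matched 98.8% of identifiers. Counts were filtered (filterByExpr, minimum count 10), scaled by TMM and tested, TNF against PBS, in edgeR 4.0.16 (robust quasi-likelihood, two-sided, Benjamini-Hochberg over all tested genes, threshold 0.05). Tests were tried on simulated data. Total counts of 15511455 to 19193721 per library gave a floor of 3 counts, or 0.17 CPM. Ratios were compared by an exact permutation test in SciPy 1.17.1. The planned ratio of Hspa1a to Hspa1b could not be computed, since Hspa1a had 0 counts in TNF replicates 2 and 3. In each list the called genes with the largest rise and fall and a mean of at least 5 CPM were named, with Hspa5, Hsp90b1, Bag3, Stip1, Hspd1, Hspe1, Hsf2, Fos, Jun, Egr1 and Atf3; genes named beyond these (Hspa4, Hspa13, Bag1, Bag2, Bag4, Bag5, Hspbp1, Fkbp4, Ppid, Cct4) were chosen after their values were seen. Alternatives were DESeq2 1.42.0, other scalings, no filter, a replicate block, summed Hspa1a and Hspa1b, and leaving out each library. Libraries with the same replicate number were not treated as pairs in the main test. Promoters are from RefSeq (GRCm38.p6).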

Additional observations from a re-analysis of the deposited data

Results flagged for a closer look

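In 37 values checked over the 4 TNF libraries, 3 had a library whose gap to its nearest neighbour, divided by the range, passed the 95% limit of the Dixon test; chance passes about 1 in 20. For the log2 ratio of Hsp90aa1 to Hsp90ab1 this share was 0.879, with TNF replicate 3 at -2.74 and the others at -2.89 to -2.87. For Dnajc13 it was 0.856, with TNF replicate 4 at 55.3 CPM and the others at 68.5 to 70.7 CPM. For Stip1 it was 0.833, with TNF replicate 1 at 39.6 CPM and the others at 51.7 to 54.2 CPM. The groups of 3 PBS libraries were not checked.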

How the results depend on the processing

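Over 13 alternatives, Hspa8, Hsph1 and Dnajb1 were called in all 13 (log2 fold change 0.39 to 0.72, -2.11 to -1.84 and 0.71 to 0.96), Hsp90aa1 in 8, Dnaja1 in 6, Hsp90ab1 in 2, and Hsf1 and Hspa1b in none. Scaling by total counts moved the median of all genes to -0.1632 and the share of calls that were higher from 49.5% to 40.5% (3142 higher, 4614 lower). The PBS and TNF groups then did not overlap for 3 tested chaperones (6 with TMM; comparison added after seeing the data). It left 2 chaperones higher, Hspa8 and Dnajb1, with Hsp90aa1 (0.22, adjusted p = 0.219) and Dnaja1 (0.18, adjusted p = 0.435, edgeR) lost, 0 genes of the heat shock factor list higher, 1 TRiC or prefoldin gene lower, 1 mitochondrial gene higher, and Hsf1 at -0.083. With no filter, 2 genes of the heat shock factor list were higher, and the untested Hspa1a and Hspb1 had log2 fold changes of -1.40 and -2.65 (edgeR adjusted p = 0.516 and 0.291). Same-numbered libraries deviated with correlations of -0.398, -0.0473 and -0.227, and PBS replicate 3 with TNF replicate 1 at 0.42. The numbers thus showed no sign of pairs, but so few libraries cannot exclude pairing. A replicate block over replicates 1 to 3 called 7067 genes, with 2 chaperones higher, Hspa8 and Dnajb1, while Hsp90aa1 (adjusted p = 0.0731) and Dnaja1 (0.0657, edgeR) were lost, 0 HSP70 and HSP110 relatives lower, 0 genes of the heat shock factor list higher, 5 TRiC and prefoldin genes higher and 0 ER genes higher. Leaving out each library gave 2 to 4 chaperones higher and 1 lower. All tested genes came to 3872 to 4170 higher and 3791 to 4455 lower. The number higher and lower was 4 to 5 and 0 to 4 for HSP70 relatives, 7 to 10 and 0 to 1 for TRiC and prefoldin, 0 to 1 and 2 to 3 for ER genes, and 0 to 1 and 0 for the heat shock factor list. Over the same omissions Hspa1b ranged from -0.209 (without PBS replicate 1) to 1.15 (without PBS replicate 2), with -0.0854 without PBS replicate 3, and Hsf1 from -0.0118 (without TNF replicate 2) to 0.142 (without TNF replicate 3). The log2 ratios moved from 0.0286 to 0.134 (Hsp90), -0.617 to 0.182 (Hspa1 over Hspa8) and 0.451 to 0.645 (Dnajb1 over Dnaja1); their p was not recomputed without a library. The cause of these changes was not tested. Hspa1a, Hspb1 and Hspa1b had few counts (10, 2 and 90 over all libraries), and the reason was not tested.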
